A study of Mus musculus with 12 samples.

Results

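The Ms4a family was taken as every row of the deposited liver table whose symbol begins with Ms4a. This gave 11 of 19852 rows: Ms4a1, Ms4a2, Ms4a4a, Ms4a4b, Ms4a4c, Ms4a4d, Ms4a6b, Ms4a6c, Ms4a6d, Ms4a7 and Ms4a8a. RefSeq lists 21 Ms4a genes in the mouse, and the others were not analysed here. Liver RNA of C57BL/6 mice aged 20 weeks was sequenced in 12 libraries, 3 each of female wild type (WT), female ARE-Del, male WT and male ARE-Del. The WT mice were littermates of the ARE-Del mice, which lack the AU-rich element of Ifng, the gene of interferon-gamma (IFN-gamma), and were used to study chronic exposure to this cytokine. The extraction protocol writes their genotype as ARE-Del-/-, and the change is carried in the germ line, so no promoter or Cre limits it to a cell type. The study asked how male and female livers differ under it. The values are RPKM, reads scaled to transcript length and library size, so levels of different genes can be set side by side. The libraries carry replicate numbers 1 to 3 within each group, but the labels do not say that each is a separate mouse, and p-values measure the spread between these libraries.

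Ms4a genes encode small cell-surface proteins that cross the membrane several times and lie beside each other in 1 gene cluster on mouse chromosome 19. They are best known from blood and immune cells: Ms4a1 is CD20 of B cells, Ms4a2 is the beta chain of the high-affinity IgE receptor of mast cells and basophils, Ms4a4b is a T cell protein, and Ms4a4a, Ms4a6c, Ms4a6d and Ms4a7 are known from macrophages. Several associate with immune receptors and tune their signals. The liver holds a large resident macrophage population, the Kupffer cells, and IFN-gamma is a classical activator of macrophages.

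Several members are recent copies of each other, which bears on how their reads can be assigned. Of the 55 pairs of members, 5 shared at least 1 identical window of 50 bases in the GENCODE M21 transcripts of protein-coding genes (GRCm38). For Ms4a2 and Ms4a4b no coding run of at least 20 bases was among them. The longest identical coding run of the other 4 pairs is printed here because a read that falls inside it fits both genes. Each is printed 5′ to 3′ in the sense of the gene, and every base of it is shared.
Ms4a4b and Ms4a4c: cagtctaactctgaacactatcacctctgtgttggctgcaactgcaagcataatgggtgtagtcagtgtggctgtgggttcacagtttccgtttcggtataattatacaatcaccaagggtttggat
Ms4a6b and Ms4a6d: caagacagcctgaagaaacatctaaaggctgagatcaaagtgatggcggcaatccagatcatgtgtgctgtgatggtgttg
Ms4a4c and Ms4a4d: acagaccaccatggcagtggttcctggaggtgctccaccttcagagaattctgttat
Ms4a6b and Ms4a6c: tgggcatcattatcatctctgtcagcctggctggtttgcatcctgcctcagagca
The Ms4a4b and Ms4a4c run is 127 bases long and spans exons 5 and 6 of 7 in both genes (chr19:11459161-11461265 and chr19:11419001-11421266, + strand). The Ms4a6b and Ms4a6d run of 81 bases lies in exons 3 and 4 of 8 of Ms4a6b (chr19:11520438-11521703, + strand) and exons 2 and 3 of 7 of Ms4a6d (chr19:11601932-11603193, - strand). The run of 57 bases lies in exon 3 of 4 of Ms4a4c (chr19:11414831-11414887, + strand) and exon 2 of 7 of Ms4a4d (chr19:11548518-11548574, + strand). The run of 55 bases lies in exon 6 of 8 of Ms4a6b (chr19:11526749-11526803, + strand) and exon 5 of 7 of Ms4a6c (chr19:11478217-11478271, + strand).

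The deposited values were also examined for whole read steps. Values were multiplied by each library's relative depth. Those of 6 members were then whole multiples of a single step in all 12 libraries, within 0.01 of a whole number. These members were Ms4a1, Ms4a2, Ms4a4a, Ms4a4d, Ms4a7 and Ms4a8a. Ms4a4b and Ms4a4c were whole in 11 of 12. In female WT 2 they came to 11.655 and 7.345 steps, which sum to 19. Ms4a6b, Ms4a6c and Ms4a6d gave no whole steps. Ms4a4d was whole in all 12 libraries although it shares a run with Ms4a4c. The cause of the values that were not whole was not tested. The split between Ms4a4b and Ms4a4c, and among the 3 Ms4a6 genes, was taken as uncertain, and summed values of each set are given beside the single ones.

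The promoters of Ms4a6b and Ms4a6c were also compared. These 2 genes moved together across the libraries (Pearson r = 0.99), as did Ms4a6c and Ms4a6d (0.99), though the split of their reads is uncertain. RefSeq (GRCm38.p6) gave a promoter window for 9 of the 11 members. The 250 bases before the start of each gene follow, 5′ to 3′, with capitals for runs of at least 10 bases found in both (82 of 250 bases).
Ms4a6b, chr19:11518309-11518558, + strand: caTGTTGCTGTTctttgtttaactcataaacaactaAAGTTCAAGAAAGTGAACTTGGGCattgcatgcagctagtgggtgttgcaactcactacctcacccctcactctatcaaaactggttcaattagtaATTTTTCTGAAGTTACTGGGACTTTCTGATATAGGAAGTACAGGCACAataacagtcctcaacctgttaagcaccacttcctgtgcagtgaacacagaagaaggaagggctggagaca
Ms4a6c, chr19:11469118-11469367, + strand: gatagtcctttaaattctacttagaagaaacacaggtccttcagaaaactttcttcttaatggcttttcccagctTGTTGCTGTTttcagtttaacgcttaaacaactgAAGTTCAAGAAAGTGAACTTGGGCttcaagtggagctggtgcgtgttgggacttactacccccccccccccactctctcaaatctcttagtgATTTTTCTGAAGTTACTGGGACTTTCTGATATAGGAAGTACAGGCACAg
The longest shared run was 48 bases, and the aligned sequences were 62% identical, against a median of 57.6% over the 36 pairs of members. Ms4a2 and Ms4a6b were also 62% identical, with a longest run of 8 bases. Ms4a4b and Ms4a4c were 76.8% identical with a longest run of 20 bases. Both strands of the full windows were searched for 5 motifs, of which the ISRE and the ETS-IRF composite can overlap: the GAS site TTCNNNGAA of STAT factors (in 8.3% of 32851 RefSeq windows), the ISRE, GAAA and GAAA with 2 bases between (3.44%), the ETS-IRF composite, GGAA and GAAA with 2 bases between (2.72%), the PU.1 core GAGGAAGT (3.2%) and the C/EBP site TTGCNNAA (10.8%). Of the 10 windows of Ms4a members, the first 4 motifs matched none, and C/EBP matched that of Ms4a4d. No match says only that these letters are not in this window.

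Before the results, the labels were checked. Ifng was listed at 0.0208, 0.011 and 0.00957 RPKM in WT females, 0.208, 0.0898 and 0.238 in ARE-Del females, 0.0382, 0 and 0 in WT males and 0.0978, 0.123 and 0.0742 in ARE-Del males, and the lowest ARE-Del value exceeded the highest WT value. All 10 listed IFN-gamma response genes rose in both sexes, against 25.8% of all tested genes in females and 19.5% in males. Among them were Cd74 (23.9 to 895 RPKM in females and 17.8 to 790 in males), Ly6a and Igtp. The list was chosen with earlier results of these data known, so it is not independent of them. Ddx3y was at 0 in all female libraries. The library labelled female ARE-Del 2 stood apart in Xist, at 0.0456 RPKM against 33 to 45.6 in the other females, although it held 0 Ddx3y, 0.0801 Cyp4a12a and 52.2 Cyp2b9 like the other females. Results were therefore computed with and without it. Read totals were not used here. Relative depth, estimated from low values, ran from 0.909 to 1.45 times that of female WT 1, and summed RPKM from 173476 to 208647.

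Ms4a levels in this bulk liver were low, and their sum was several times higher in ARE-Del than in WT of either sex. The summed RPKM of the family was 4.72 ± 1.14 in WT females, 21.8 ± 3.63 in ARE-Del females, 2.96 ± 0.349 in WT males and 11.4 ± 1.01 in ARE-Del males (mean ± SD, n = 3). The ARE-Del mean was 4.63 times the WT mean in females and 3.85 times in males, and no ARE-Del library overlapped the WT libraries of its sex. In these bulk samples, more cells of a type and more RNA per cell cannot be told apart. In WT, the mean of Ms4a4d was highest, then Ms4a6d and Ms4a6c, which overlapped each other; Ms4a4d and Ms4a6d overlapped in females and not in males. In ARE-Del females Ms4a6d and Ms4a6c were above Ms4a4d, and their ranges overlapped each other. In ARE-Del males the ranges of Ms4a6d, Ms4a4d and Ms4a6c overlapped.

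**Figure D1:**
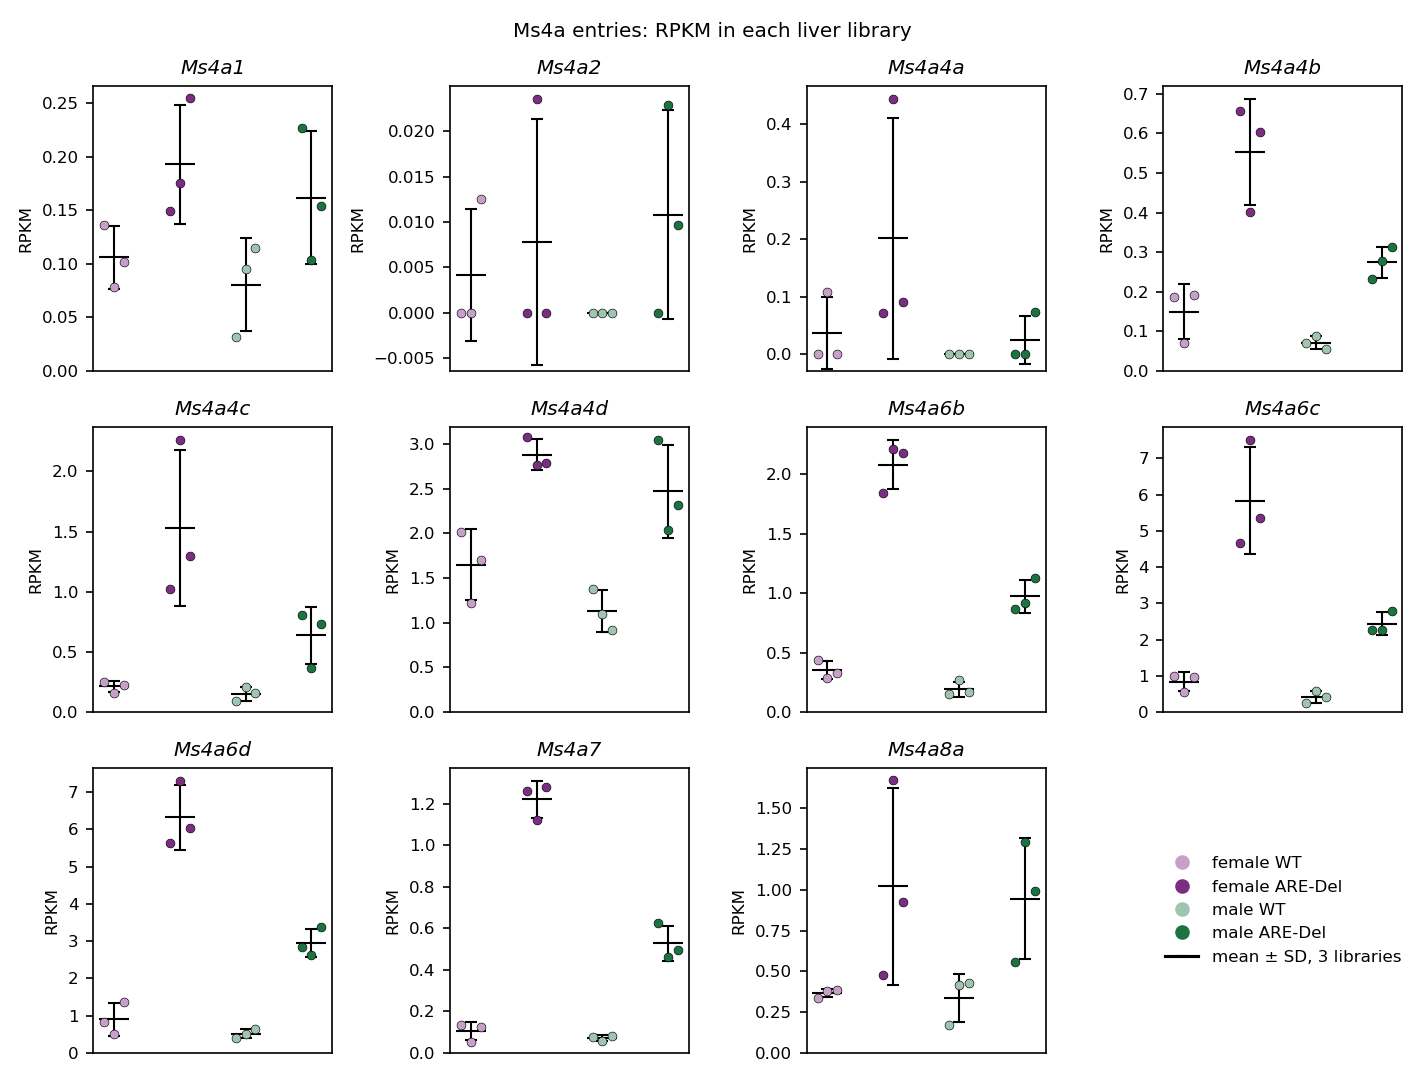
RPKM of the 11 Ms4a entries in each library (points), with the mean and SD of the 3 libraries of each group (black). Each panel has its own axis; Ms4a6d reaches 7.3 RPKM in a female ARE-Del library, whereas Ms4a2 stays at or below 0.0235.

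Of the 11 entries, 7 reached 0.5 RPKM in at least 3 libraries and were tested with limma on log2(RPKM + 1), with Benjamini-Hochberg adjustment over 10568 genes at 0.05. The log2 changes below are on that scale, which understates the change of genes near or below 1 RPKM. In females 7 of 7 tested members rose in ARE-Del, against 25.8% of all tested genes. In males 6 of 7 rose, against 19.5%. Their median log2 change was 1.03 in females and 0.70 in males, and that of all tested genes 0.09 and 0.10. The ARE-Del libraries lay above the WT libraries without overlap in 7 of 7 members in each sex, as they did for 34.9% of tested genes in females and 36.1% in males. Ms4a4c, Ms4a6b, Ms4a7 and Ms4a8a had no WT library at 0.5 RPKM and entered the test through their ARE-Del libraries alone, so these counts and medians do not measure the family.

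Ms4a6d, a macrophage member, had the largest log2 changes of the tested members on the log2(RPKM + 1) scale, though not the largest ratios of means. Its RPKM was 0.84, 0.499 and 1.37 in WT females and 5.62, 7.3 and 6.03 in ARE-Del females. In males it was 0.405, 0.507 and 0.646 in WT and 2.84, 2.64 and 3.37 in ARE-Del. The lowest ARE-Del library of each sex was thus well above the highest WT library. The log2 change was 1.96 ± 0.14 in females (SE; limma, adjusted p = 1.03e-06) and 1.38 ± 0.14 in males (4.60e-05), and the ratio of means 6.99 and 5.68.

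Ms4a6c, its close relative, followed the same order of groups. It was listed at 0.989, 0.539 and 0.976 RPKM in WT females and at 4.65, 7.5 and 5.35 in ARE-Del females. Male WT libraries held 0.237, 0.574 and 0.412 and male ARE-Del libraries 2.26, 2.26 and 2.8. Every ARE-Del library exceeded every WT library. The change was 1.88 ± 0.15 in females (limma, adjusted p = 1.61e-06) and 1.29 ± 0.15 in males (8.86e-05).

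Ms4a6b, known from both T cells and macrophages, was lower in level. Its RPKM was 0.44, 0.29 and 0.33 in WT females, 1.84, 2.21 and 2.18 in ARE-Del females, 0.148, 0.265 and 0.166 in WT males and 0.868, 0.914 and 1.13 in ARE-Del males. The ARE-Del mean was 5.88 times the WT mean in females and 5.03 times in males. It rose by 1.18 ± 0.07 in females (limma, adjusted p = 4.90e-07) and 0.72 ± 0.07 in males (3.45e-05). Summed over Ms4a6b, Ms4a6c and Ms4a6d, which removes their uncertain split, the change was 2.31 ± 0.17 (adjusted p = 9.96e-07) and 1.80 ± 0.17 (1.95e-05).

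Ms4a7, a marker of some tissue macrophages, was close to absent in WT and had the largest ratio of means of the tested members. WT libraries held 0.136, 0.0538 and 0.125 RPKM in females and 0.0749, 0.0561 and 0.083 in males. These values corresponded to 6 to 16 steps. ARE-Del libraries held 1.26, 1.12 and 1.28 in females and 0.624, 0.464 and 0.497 in males, or 65 to 216 steps. The ratio of means was 11.7 in females and 7.41 in males. The log2 change was 1.01 ± 0.06 (limma, adjusted p = 2.27e-07) and 0.51 ± 0.06 (5.38e-05).

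Ms4a4c, a gene of blood cells, was listed at 0.247, 0.16 and 0.227 RPKM in WT females and 1.02, 2.26 and 1.3 in ARE-Del females. In males it was at 0.0909, 0.204 and 0.161 in WT and 0.81, 0.364 and 0.735 in ARE-Del. The groups did not overlap, but female ARE-Del 2 was far above the other 2 of its group and male ARE-Del 2 below the others of its own. The change was 1.03 ± 0.15 in females (limma, adjusted p = 1.86e-04) and 0.50 ± 0.15 in males (0.0324). The male call was lost without male WT 1, 2 or 3 or male ARE-Del 1 or 3 (adjusted p 0.053 to 0.109), whereas the sum of Ms4a4b and Ms4a4c rose by 0.64 ± 0.12 in males (0.00234) and 1.17 ± 0.12 in females (1.01e-05).

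Ms4a4d differed from these members in having the highest WT level and the smallest ratio. Its RPKM was 2.01, 1.22 and 1.7 in WT females and 3.08, 2.76 and 2.79 in ARE-Del females. Males held 1.38, 1.1 and 0.914 in WT and 3.04, 2.04 and 2.32 in ARE-Del. The groups did not overlap in either sex. It rose by 0.56 ± 0.12 in females (limma, adjusted p = 0.0045) and 0.70 ± 0.12 in males (0.00186), with ratios of means of 1.75 and 2.18.

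Ms4a8a, described in alternatively activated macrophages and in gut epithelium, had the largest SD relative to its mean of the tested members in ARE-Del. WT libraries held 0.336, 0.377 and 0.387 RPKM in females and 0.17, 0.416 and 0.431 in males. ARE-Del libraries held 0.477, 1.67 and 0.924 in females and 0.556, 1.29 and 0.989 in males. The second library was the highest and the first the lowest of the ARE-Del group in each sex, though the labels do not say that a number pairs libraries. The change was 0.52 ± 0.18 in females (limma, adjusted p = 0.0473), which missed the threshold when any of 9 of the 12 libraries was left out. Only without female ARE-Del 1, male ARE-Del 1 or male ARE-Del 2 did it pass. In males it was 0.53 ± 0.18 (0.0596), which missed the threshold.

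**Figure D2:**
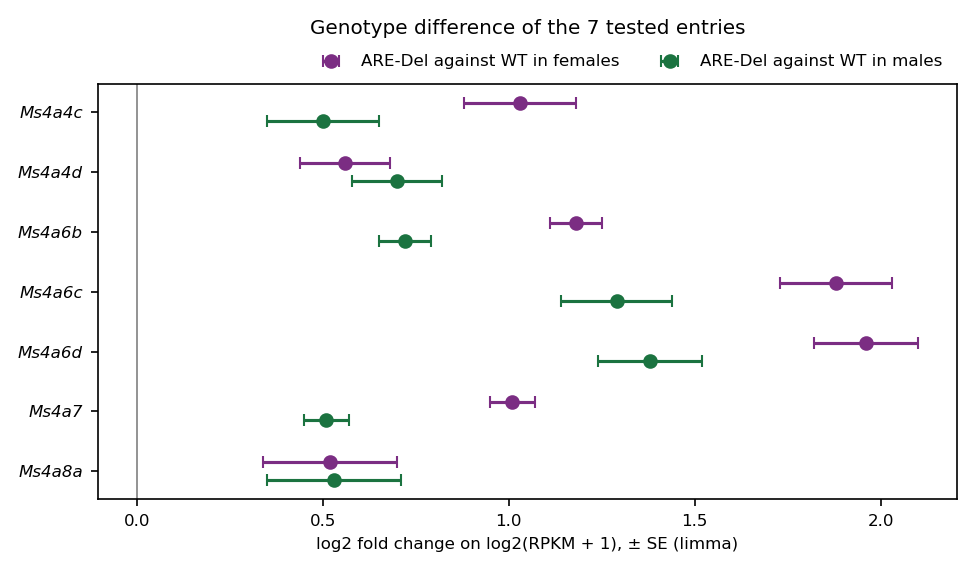
Log2 fold change of ARE-Del against WT on the log2(RPKM + 1) scale, with its SE from limma, for the 7 tested entries in females (purple) and males (green). Ms4a6d and Ms4a6c lie farthest from 0 in each sex, and the female estimate lies above the male one for Ms4a4c, Ms4a6b, Ms4a6c, Ms4a6d and Ms4a7 but not for Ms4a4d or Ms4a8a.

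Without the library labelled female ARE-Del 2, the female changes were 1.87 for Ms4a6d, 1.72 for Ms4a6c, 1.15 for Ms4a6b, 1.04 for Ms4a7, 0.83 for Ms4a4c and 0.58 for Ms4a4d (limma, adjusted p 5.85e-07 to 0.0112). Only Ms4a8a then missed the threshold (0.30, adjusted p = 0.167), so 6 of 7 members rose in females. In males 7 of 7 did. No male library was left out there, and the male change of Ms4a8a stayed at 0.53. Its limma adjusted p went from 0.0596 to 0.0199, because the 4 groups share their estimate of the spread. With all 12 libraries, 25.8% of tested genes rose in females and 19.5% in males.

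The scaling of the table moved all genes. Quantile normalization shifted the median change of all tested genes by -0.15 in females and -0.14 in males, and the share of called genes that were higher in ARE-Del from 82.3% to 39.9% in females and from 90.5% to 47.1% in males. With median-of-ratios scaling these shares were 58.6% and 63.6%. Relative to the median gene, the changes in females and males were 1.87 and 1.28 for Ms4a6d, 1.80 and 1.19 for Ms4a6c, 1.10 and 0.63 for Ms4a6b, 0.92 and 0.41 for Ms4a7, 0.94 and 0.40 for Ms4a4c and 0.47 and 0.60 for Ms4a4d. No member changed direction under either scaling. After quantile normalization Ms4a8a in females (0.37, limma adjusted p = 0.149) and Ms4a4c in males (0.42, 0.0923) missed the threshold, as they did with median-of-ratios scaling (0.0744 and 0.0632), whereas Ms4a4d passed (0.41 in females, 0.0235).

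The 4 members that never reached the filter include the markers of lymphocytes and mast cells. They were compared between genotypes within sex by a 2-sided exact permutation test over 400 arrangements, whose smallest p is 0.005. Ms4a4b, the T cell member, was at 0.187, 0.0699 and 0.193 RPKM in WT females and 0.656, 0.402 and 0.604 in ARE-Del females. In males it was at 0.071, 0.0875 and 0.0555 in WT and 0.233, 0.277 and 0.312 in ARE-Del. No WT library reached the lowest ARE-Del library of its sex, and there was a mean difference of 0.303 RPKM (exact permutation p = 0.005, the smallest possible). Of the 12 T cell markers 6 were tested, and 6 rose in females and 5 in males, against 25.8% and 19.5% of all tested genes. Among them were Cd8a (0.0973 to 1.32 RPKM in females and 0.0687 to 0.613 in males), Thy1 and Cd3g. Cd8a and Cd3g had WT means of at most 0.142 RPKM and entered the test through their ARE-Del libraries alone, so these counts do not measure the cell type. The summed level of the 12 markers was 1.02 to 2.3 in WT females, 5.63 to 9.82 in ARE-Del females, 1.08 to 1.34 in WT males and 3.15 to 5.22 in ARE-Del males. Their part in the Ms4a4b difference was not tested.

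Ms4a1 (CD20) was at 0.136, 0.0783 and 0.102 RPKM in WT females and 0.149, 0.176 and 0.255 in ARE-Del females. Male values were 0.0318, 0.0952 and 0.115 in WT and 0.227, 0.104 and 0.154 in ARE-Del. The female groups did not overlap and the male groups did, and the mean difference was 0.0845 RPKM (exact permutation p = 0.01). Of the B cell markers, 3 of 4 tested rose in each sex, against 25.8% of all tested genes in females and 19.5% in males. Cd79b rose in females (0.334 to 0.967 RPKM) and Cd79a in males (0.422 to 0.89), and Bank1 in both. Cd79b and Bank1 had WT means of at most 0.334 RPKM and entered the test through their ARE-Del libraries alone. These counts therefore do not measure the cell type. The summed level of the 11 B cell markers was 1.72 to 2.33 in WT females, 3.61 to 5.01 in ARE-Del females, 1.26 to 1.74 in WT males and 2.24 to 3.32 in ARE-Del males, with Pax5 and Cr2 at or below 0.1 RPKM in all 12 libraries. The part of these markers in the Ms4a1 difference was not tested.

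Ms4a2 (the IgE receptor beta chain) was listed at 0 in 8 of 12 libraries and reached 0.0235 RPKM, or 2 steps. Its genotype difference was 0.00725 RPKM (exact permutation p = 0.32). Mast cell and basophil markers were also scarce: Fcer1a, the partner chain of the same receptor, and Cpa3, Mcpt4, Mcpt8, Cma1 and Tpsb2 were at or below 0.1 RPKM in all 12 libraries. Of the 2 that could be tested, Hdc rose in females (0.301 to 0.606 RPKM) and Kit did not pass, and neither passed in males. The summed level of the 9 listed markers was 0.482 to 1.32 in WT females, 0.871 to 1.59 in ARE-Del females, 0.823 to 1.01 in WT males and 0.7 to 1.14 in ARE-Del males. Ms4a4a, a macrophage member that binds the receptor Dectin-1, held 7 steps in all over the 3 female ARE-Del libraries, 5 of them in female ARE-Del 2, 1 each in WT females and male ARE-Del, and was listed at 0 in WT males (exact permutation p = 0.15). Neither gene was detected well enough at this depth to show a difference.

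The make-up of the family level also shifted. Ms4a4d supplied 31.4% to 37.8% of the summed Ms4a RPKM in WT females and 10.7% to 16.4% in ARE-Del females. In males its share was 30.6% to 52.8% in WT and 18.7% to 26.5% in ARE-Del. The shares of Ms4a6d, Ms4a6c and Ms4a7 were higher in every ARE-Del library than in every WT library of the same sex. Ms4a6d went from 14.7% to 25.3% in WT females to 28.2% to 29.9% in ARE-Del females, and from 15.4% to 21.6% to 24.8% to 27.2% in males. Ms4a7 went from 1.58% to 2.55% to 4.34% to 6.71% in females.

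**Figure D3:**
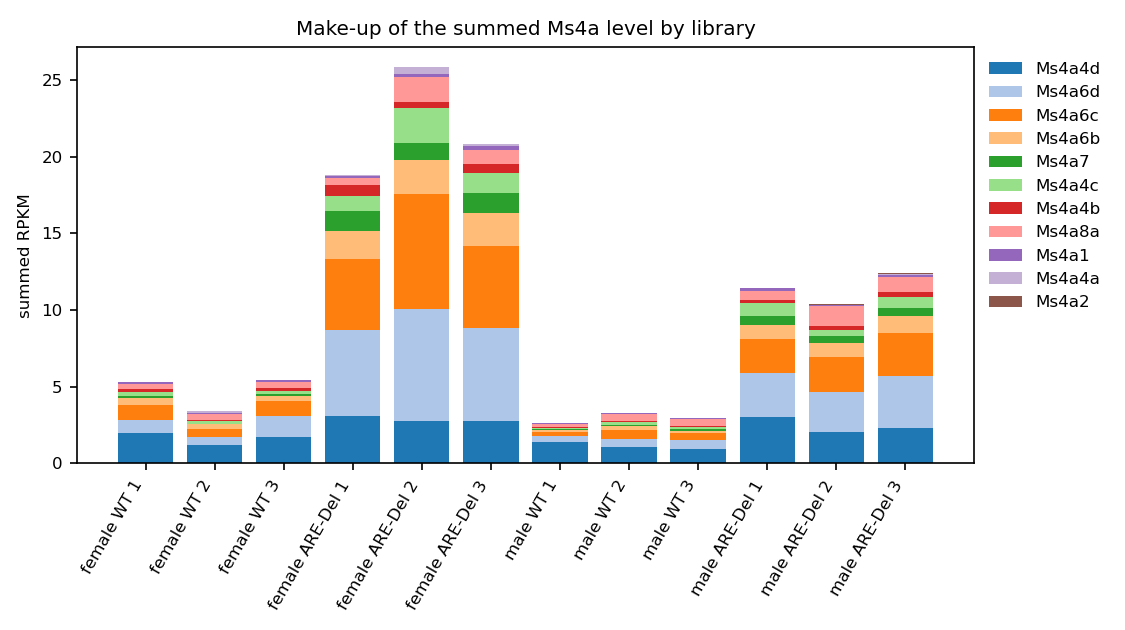
Summed RPKM of the Ms4a entries in each of the 12 libraries, split by entry (colours; bars start at 0). Ms4a4d (dark blue) is the largest part of every WT bar, while Ms4a6d and Ms4a6c (light blue and dark orange) fill most of the female ARE-Del bars.

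Markers of macrophages moved with the family. Beside the counts below, 25.8% of all tested genes rose in females and 19.5% in males. Of the pan-macrophage markers 11 of 11 rose in females and 10 of 11 in males, led in level by Mpeg1 (13.1 to 99.4 RPKM in females and 10.3 to 77.1 in males), Tyrobp and Fcer1g. Their summed level was 43.2 to 69.3 RPKM in WT females, 287 to 326 in ARE-Del females, 32.3 to 54.5 in WT males and 161 to 200 in ARE-Del males. Of the Kupffer cell markers 8 of 10 rose in each sex and Cd163, named after its value was seen, fell in females (-1.48 ± 0.32, limma adjusted p = 0.00341), with sums of 120 to 207, 572 to 683, 84.5 to 137 and 321 to 388 in the same order of groups. Monocyte and infiltrating macrophage markers rose in 6 of 6 tested genes in females and 5 of 6 in males (sums of 5.12 to 10, 51 to 78.6, 3.43 to 6.36 and 22.2 to 29.1), among them Fcgr4, Plac8 and Cd44. Of 7 dendritic cell markers 2 were tested, Itgax and Xcr1, and both rose in each sex. The sums of the 7 were 0.843 to 1.11, 4.01 to 4.72, 0.475 to 0.749 and 1.56 to 2.21, with Siglech at or below 0.1 RPKM in all libraries. Itgax and Xcr1 had WT means of at most 0.149 RPKM and entered the test through their ARE-Del libraries alone. Zbtb46, also among the 3 most abundant, was not tested and changed little (0.383 to 0.388 RPKM in females and 0.28 to 0.337 in males). The part of these cell types in the Ms4a differences was not tested.

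Set against the macrophage markers, the family sum overlapped between genotypes and its members split. The family sum was 7.68% to 8.13% of the summed pan-macrophage markers in WT females, 6.54% to 7.92% in ARE-Del females, 6.06% to 8.06% in WT males and 5.83% to 6.46% in ARE-Del males, with overlapping groups. Ms4a7 was 0.125% to 0.196% of the markers in WT females and 0.344% to 0.44% in ARE-Del females, and 0.103% to 0.232% and 0.248% to 0.317% in males, higher without overlap. Ms4a6c was also higher without overlap (1.25% to 1.46% against 1.62% to 2.3% in females, 0.735% to 1.05% against 1.15% to 1.41% in males). Ms4a4d was lower without overlap, at 2.55% to 2.91% against 0.845% to 1.07% in females and 2.01% to 4.26% against 1.16% to 1.55% in males. Ms4a6b, Ms4a6d, Ms4a4c and Ms4a8a overlapped between genotypes. The marker sum weighs abundant markers most, led by Mpeg1 (13.1 to 99.4 RPKM in females and 10.3 to 77.1 in males). Which members lie above or below can depend on that weight, and no other sum was tried. These ratios are a description and were not tested.

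**Figure D4:**
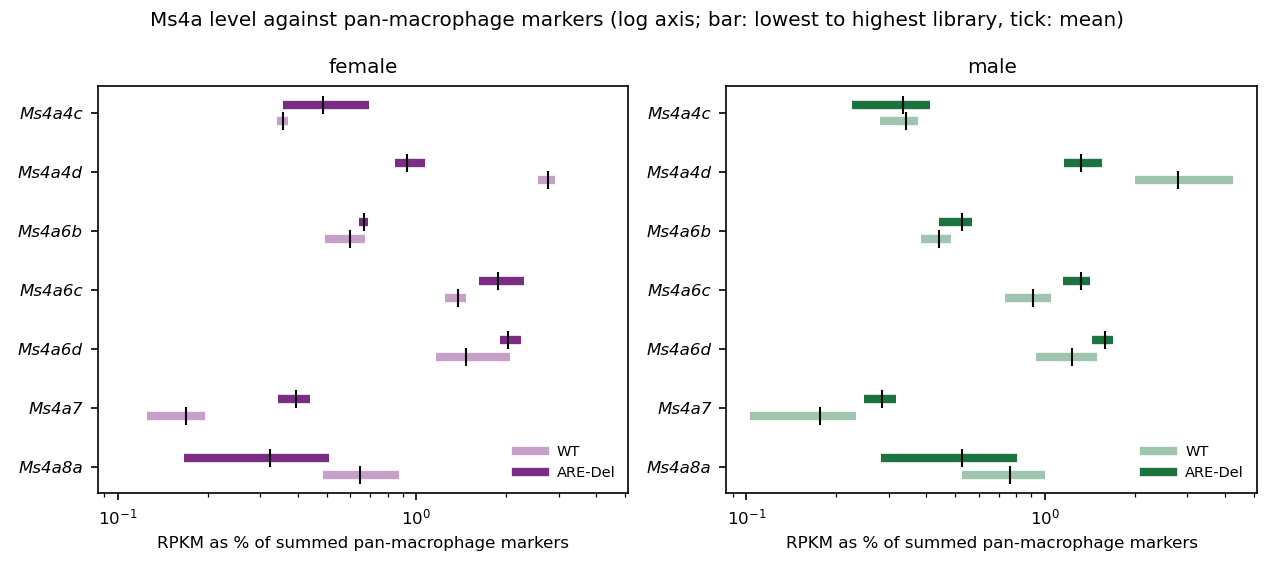
Level of each tested Ms4a entry as a percentage of the summed RPKM of 11 pan-macrophage markers (log axis), from the lowest to the highest library of each group (bar) with the mean (tick), in females (left) and males (right). The ARE-Del bars lie to the right of WT for Ms4a7 and Ms4a6c and to the left for Ms4a4d.

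Genes related to CD20, or partners of its family, rose in 8 of 11 tested genes in females and 9 of 11 in males. The shares of all tested genes were 25.8% and 19.5%, and this list partly overlaps the macrophage list. Tmem176b and Tmem176a, which encode related membrane proteins, were far more abundant than any Ms4a gene, and both rose: Tmem176b from 28.9 ± 0.728 to 60.1 ± 9.28 RPKM in females (log2 change 1.02 ± 0.14, limma adjusted p = 1.31e-04) and from 26.7 ± 6.28 to 48.2 ± 2.22 in males (0.85 ± 0.14, 0.00108). Tmem176a changed by 0.93 and 0.82. Cd81, a tetraspanin, did not pass the test (-0.16 in females, adjusted p = 0.145, and 0.06 in males, 0.616).

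The second question of the study is the difference between the sexes. Among WT livers 0 of 7 tested members passed in either direction (limma with Benjamini-Hochberg adjustment), against 9.76% of tested genes, although Ms4a4d, Ms4a6b and Ms4a6c had an unadjusted p under 0.05 and were nominally higher in females (0.31, 0.18 and 0.38). Leaving out female WT 2, the lowest female WT library for most members, gave 2 calls, Ms4a4d and Ms4a6d. In WT the female mean was 2.05 times the male mean for Ms4a6c, 1.83 for Ms4a6b, 1.74 for Ms4a6d and 1.47 for Ms4a7. It was 1.46 times for Ms4a4d, 1.39 for Ms4a4c, 1.08 for Ms4a8a and 1.59 for the family sum. The log2(RPKM + 1) scale understates such differences below 1 RPKM, so 0 calls do not show equal levels. Among ARE-Del livers 5 of 7 were higher in females, against 16.4% of tested genes: Ms4a6c (0.97 ± 0.15, adjusted p = 7.94e-04), Ms4a6d (0.89 ± 0.14, 0.00112), Ms4a6b (0.64 ± 0.07, 1.33e-04), Ms4a4c (0.61 ± 0.15, 0.0118) and Ms4a7 (0.54 ± 0.06, 6.38e-05). The median difference was 0.61 for the tested members and 0.04 for all genes. Ms4a4c and Ms4a7 had fewer than 3 libraries at 0.5 RPKM outside ARE-Del females and entered the test through that group, so this count and median do not measure the family either. Without female ARE-Del 2 these 5 passed again (0.80, 0.79, 0.61, 0.41 and 0.57). Ms4a4c missed the threshold without male ARE-Del 2 (0.48, adjusted p = 0.0559) and when only the ARE-Del groups were fitted (0.61, 0.0512), which left 4 members. The female mean was 2.14 to 2.4 times the male mean in these 5, and their groups did not overlap, as for 26.7% of tested genes. Ms4a4d (ratio 1.17, adjusted p = 0.363) and Ms4a8a (1.08, 0.92) did not pass. Among called genes, the share higher in females fell with scaling from 68.9% to 55% and 42.7% in WT and from 73.2% to 63% and 46.2% in ARE-Del (median-of-ratios and quantile), and the direction of the 5 did not.

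The macrophage markers differed between the sexes in the same way, with 10 of 11 pan-macrophage genes and 4 of 10 Kupffer cell genes higher in ARE-Del females than in ARE-Del males. T cell markers were higher in 6 of 6, B cell markers in 3 of 4, and monocyte markers in 5 of 6. Of all tested genes, 16.4% were higher in ARE-Del females. Some of these markers, such as Cd8a and Cd3g, entered the test through ARE-Del libraries alone. The part of these cells in the sex difference was not tested.

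Whether the genotype change itself differed between females and males was tested as an interaction, which 0.568% of all genes passed. Of the 7 members 1 passed: Ms4a7 changed by 0.50 ± 0.08 more in females (limma, adjusted p = 0.0212). Ms4a6b (0.46 ± 0.10, 0.0714), Ms4a6c (0.59 ± 0.21, 0.267), Ms4a6d (0.58 ± 0.20, 0.258) and Ms4a4c (0.54 ± 0.21, 0.326) pointed the same way without passing, and Ms4a4d (-0.14 ± 0.18, 0.873) and Ms4a8a (0.00 ± 0.26, 0.999) were close to 0. Ms4a7 reached 0.5 RPKM in 3 female ARE-Del libraries, 1 male ARE-Del library and 0 WT libraries. It entered the test through the group where it was highest, so its call does not stand apart from that selection. The Ms4a7 call also depended on the scale: with a pseudocount of 0.5 or 0.1 in place of 1 no member passed. It was also lost without female WT 1 or 2, female ARE-Del 3, male WT 1, 2 or 3, or male ARE-Del 2. Without female ARE-Del 2 it was 0.53 (0.0195).

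The genes whose pattern over the 12 libraries was most like each member were listed by Pearson r on log2(RPKM + 1), as a description over libraries that share genotype and sex. Ms4a6d was closest to Cd53 (0.996), Fcer1g and Cd52, all genes of leukocytes, and Ms4a6c to Ncf1 (0.994), Pilrb2 and Cd53. Ms4a6b was closest to Alpk1 (0.994), Tlr13 and Il10ra, Ms4a7 to Ccdc88b (0.994), Parvg and Plek, and Ms4a4c to Myo1g (0.983), Sirpb1 and Gcnt1. Ms4a4d was closest to Tnfrsf11b (0.977), which encodes the secreted decoy receptor osteoprotegerin, Chsy1 and Sil1. Ms4a8a stood apart, being closest to 2 retroviral gag entries, Gag_p30.43 (0.964) and Gag_p30.106 (0.935), and to LOC100041932 (0.955). Gag_p30.43 was at 1.1, 3.76 and 2.18 RPKM in ARE-Del females and 1.47, 3.47 and 2.86 in ARE-Del males, with the same order of libraries within each ARE-Del group as Ms4a8a. Its WT values were 0.917, 0.762 and 0.643 in females and 0.451, 1.03 and 0.531 in males. Among Ms4a4c, Ms4a6b, Ms4a6c, Ms4a6d and Ms4a7 the pairwise r was 0.92 to 0.99, and -0.18 to 0.78 once the group means were removed. Ms4a7 and Ms4a8a had the lowest r after that removal (-0.70).

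The genes in and next to the cluster were also described by position. In RefSeq order, 14 genes within it or up to 10 genes to either side had a row in the table, of which 6 were tested. AW112010, a transcript next to Ms4a8a inside the cluster, rose from a mean of 95.1 to 256 RPKM in females (log2 change 1.42 ± 0.11, limma adjusted p = 1.78e-06) and from 55.5 to 197 in males (1.81 ± 0.11, 6.69e-07). Its level was far above that of any Ms4a member in every group. Slc15a3, a lysosomal peptide transporter gene of immune cells, rose from 1.21 to 5.08 RPKM in females (1.46 ± 0.14, 6.56e-06) and from 0.714 to 2.05 in males (0.84 ± 0.14, 0.00113). Ccdc86 rose in females (0.36 ± 0.08, 0.00433) and did not pass in males (0.19 ± 0.08, 0.11). Tmem109, Prpf19 and Mrpl16 did not pass in either sex, with changes between -0.11 and 0.14.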

How the data were processed

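RNA was extracted from whole liver with Trizol and libraries were made with a TruSeq RNA kit, per the labels' protocols. The authors deposited RPKM values. Per the submitters' processing notes, Trimmomatic 0.30, TopHat2 2.0.8, Partek and GenomeStudio 6.6 were used with the mm9 build. How reads were counted, and with or without strand, is not given in the sources used here. Genes with at least 0.5 RPKM in at least 3 libraries were fitted as log2(RPKM + 1) with limma 3.58.1 (R 4.3.3; 4 group means, eBayes with trend), with Benjamini-Hochberg adjustment within each of 5 comparisons. The fit was tested on simulated data. Low entries were compared by exact permutation. Relative depth came from the commonest ratio of values below 0.2 RPKM; 1 step is the smallest unit so found. The members and gene lists were chosen with earlier results of these data known. Beyond every Ms4a entry, the rule named the 3 most abundant members of each list, defining markers near 0 and the 3 genes most like each member; cluster neighbours were named by position. Alternatives covered scaling, pseudocount, filter, variance model, samples fitted, the replicate block and each left-out library; summing paralogs was chosen after seeing the data. Python 3.11.15, pandas 2.3.3, numpy 2.4.6, scipy 1.17.1 and matplotlib 3.10.9 were used.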

Additional observations from a re-analysis of the deposited data

Results flagged for a closer look

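The change of Ms4a7 from WT to ARE-Del was larger in females than in males by 0.50 on the log2(RPKM + 1) scale, and the test of that difference itself passed (limma, adjusted p = 0.0212). Over 22 alternatives the difference ran from 0.41 to 0.84 with adjusted p of 0.0195 to 0.382, and it passed in 13 of them. Ms4a7 entered the test through female ARE-Del libraries, the group where it was highest, so the call does not stand apart from that selection.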

How the results depend on the processing

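With paralogs summed, 5 of 5 entries rose in ARE-Del females and 4 of 5 in males. Under the other alternatives the count was 6 or 7 in females and 5 to 7 in males. Ms4a8a was called in females in 8 of 22 alternatives, and Ms4a4c in males in 14 of 22. No result changed sign where it was called. The count for females against males in ARE-Del was 3 of 5 with paralogs summed. For females against males in WT it was 1 (Ms4a6b) with a pseudocount of 0.1, and 0 to 2 when leaving out 1 library. For the interaction it was 0 with a pseudocount of 0.1, 0 with 0.5 and 0 with a filter on the mean over 12 libraries, which left 6 members without Ms4a7. It was 0 to 2 when leaving out 1 library, with Ms4a6b added without male ARE-Del 3. Apart from the filter, which did not test Ms4a7, the cause was not tested. Of 796 values under alternatives 752 kept their side of the threshold, 33 lost it and 11 gained it. The labels do not say that replicate numbers pair the libraries. Deviations of same-numbered libraries correlated between -0.291 and 0.245, and those of other pairs between -0.247 and 0.23. Only 2 of 12 libraries correlated best with their own number. With 3 libraries a group this check cannot exclude a pairing. With the number as a replicate block the members called were 7 in females, 7 in males, 1 in the interaction, 0 for sex in WT and 5 for sex in ARE-Del. Members near 0.1 RPKM rest on few reads, and smaller differences are not detectable at this depth.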
